A study of Papio anubis with 60 samples.

Results

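The acetylation and the trimethylation of lysine 27 of histone H3 were compared in induced pluripotent stem cells (iPSC) of the olive baboon, Papio anubis. The regions described are all peaks of the iPSC H3K27ac list and all peaks of the iPSC H3K27me3 list on chromosomes 1 to 20, taken by their coordinates alone. They were 213657 H3K27ac peaks and 131632 H3K27me3 peaks, together 345289 of the 2116963 peaks that 8 lists hold on all sequences. The series mapped 4 histone marks by chromatin immunoprecipitation with sequencing (ChIP-seq) in iPSC and in embryonic stem cells (ESC), with 60 libraries that include inputs. The iPSC were lines 160-2 and M14939#3, which are reprogrammed somatic cells, and the ESC were lines B4 and B15; the labels name no treatment, and all lines were kept on a layer of feeder cells. Each library was made from 50000 cells with micrococcal nuclease, and each iPSC line has 3 replicates per mark, which gives 6 H3K27ac and 6 H3K27me3 libraries.

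The deposited data hold 1 list per cell type and mark, so neither the spread between the 2 lines nor that between replicates can be seen, and cell type cannot be told apart from cell line. A base covered by both lists may bear both marks in the same cells, or each mark in other cells, in another line or on another allele, and these cannot be told apart. How much chromatin the feeder cells gave was not tested.

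Acetyl and trimethyl groups cannot sit on the same lysine of one histone tail. H3K27ac is laid down at active promoters and enhancers, and H3K27me3 is written by Polycomb repressive complex 2 over silent or poised genes. H3K4me3 marks promoters, and in pluripotent cells many promoters of developmental genes carry H3K4me3 with H3K27me3, a state named bivalent. H3K9me3 marks heterochromatin and silenced repeats and is used here to split the H3K27me3 peaks.

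The H3K27ac peaks were short and the H3K27me3 peaks wider. H3K27ac covered 54.4 Mb, or 2.10% of the 2594 Mb spanned by the peaks of all lists, with a median width of 206 bp. H3K27me3 covered 90.1 Mb, or 3.47%, with a median width of 442 bp and a widest peak of 125.5 kb. The median fold enrichment over background, the authors' own value of each peak, was 2.90 in the H3K27ac list and 2.72 in the H3K27me3 list. Of the H3K27me3 peaks, 76.7% touched an iPSC H3K9me3 peak. These are called H3K27me3 on H3K9me3, and the other 23.3% H3K27me3 off H3K9me3.

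Taken as a whole, the lists met about as often as lists moved along the chromosomes. At least 1 bp of H3K27me3 was found in 10648 H3K27ac peaks, or 4.98% (95% Wilson interval 4.89 to 5.08%). After H3K27me3 was moved in a circle along each chromosome by 100 offsets, the share averaged 4.77% and ranged from 4.57 to 4.96%. In the other direction, 9356 H3K27me3 peaks, or 7.11%, held H3K27ac, against 6.84% after shifts. Both marks covered 2.35 Mb in common, which is 4.32% of the acetylated and 2.61% of the methylated base pairs. Shifted levels are given here and below as a description, and with 1 list per mark no p-value can be formed.

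That pooled share joined a high and a low value. H3K27ac peaks that overlapped an H3K4me3 peak numbered 109246, or 51.1% of the list. Of these, 9199, or 8.42% (8.26 to 8.59%), lay in H3K27me3. A peak is said here and below to lie in H3K27me3 where at least 1 bp is shared. Only 19.0% of the 9199 lay wholly inside it. The shifted level of these peaks was 5.00% (range 4.77 to 5.26%), so the observed share was 1.69 times as high. The 104411 H3K27ac peaks away from H3K4me3, the class in which distal enhancers fall, lay in H3K27me3 in 1449 cases, 1.39% (1.32 to 1.46%). Their shifted level was 4.52% (4.32 to 4.73%), and the observed share was 0.307 times that. Neither observed share came within its shifted range, and the ranges of both classes lay close to each other. Shifts also moved H3K27me3 off its H3K4me3 sites, where 27.8% of its peaks lay. Part of both ratios therefore follows from how the 2 classes were defined, and that part was not separated.

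Among the acetylated H3K4me3 sites, those in wide domains had the higher share. H3K4me3 domains were firm H3K4me3 peaks (−log10 q of at least 5) joined within 1 kb and at least 2 kb wide. In them lay 29478 H3K27ac peaks, of which 19.2% (18.8 to 19.7%) overlapped H3K27me3, against 5.41% (5.00 to 5.84%) after shifts. The 79768 H3K27ac peaks at other, narrower H3K4me3 sites overlapped it in 4.44%, against 4.85% (4.58 to 5.19%). For this narrower class the direction was not stable, since shifts of only 20 to 200 kb gave 4.13%.

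The excess at H3K4me3 was larger for H3K27me3 off H3K9me3. Of the H3K27ac peaks at H3K4me3, 5.32% lay in H3K27me3 off H3K9me3, which is 4.47 times the shifted 1.19%. In H3K4me3 domains the share was 14.5% against 1.33%, or 10.9 times. For H3K27me3 on H3K9me3 the share at H3K4me3 was 3.11%, against 3.81% after shifts along the whole chromosome and 3.09% (2.95 to 3.27%) after shifts of 20 to 200 kb, so its direction depended on the shift. In H3K4me3 domains it was 4.74% against 4.09%. Away from H3K4me3 both kinds were met less often than after shifts, with 0.353% against 1.06% for H3K27me3 off H3K9me3 and 1.03% against 3.47% for that on H3K9me3. Of the 30678 H3K27me3 peaks off H3K9me3, 17906 lay at H3K4me3, a link that shifts do not keep. By base pairs, H3K27me3 off H3K9me3 covered 0.324% of sequence with H3K27ac but no H3K4me3, and 0.393% of sequence with neither, values much closer together. For H3K27me3 on H3K9me3 these were 0.855% and 2.405%.

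**Figure D1:**
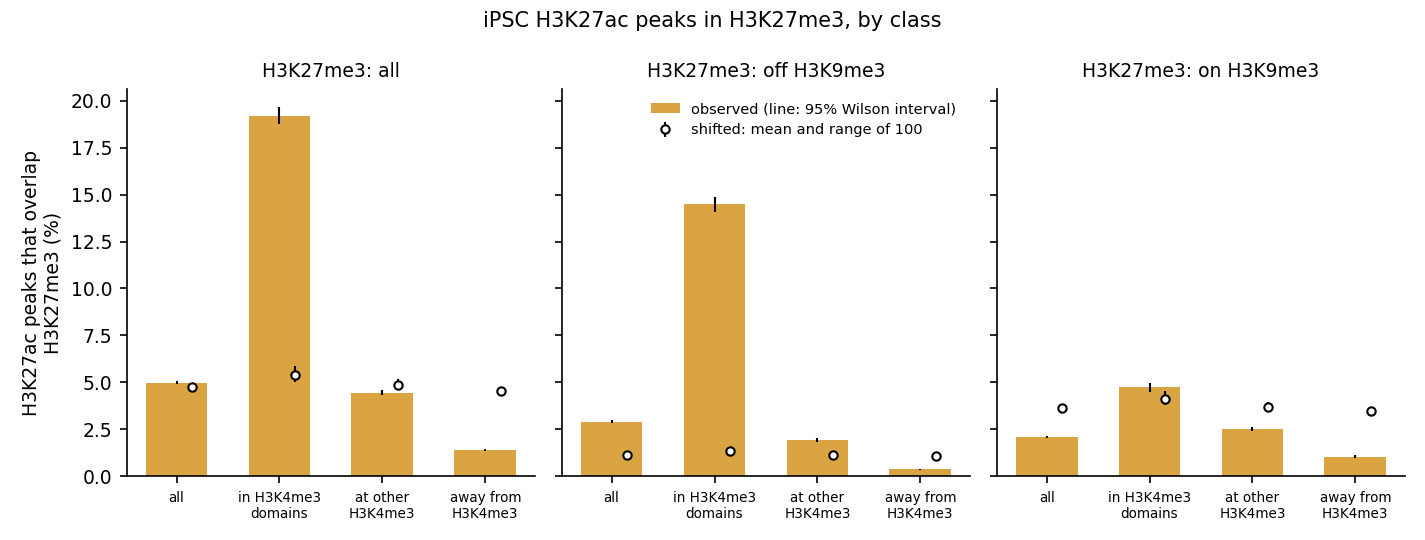
The bars give the percent of iPSC H3K27ac peaks that overlap H3K27me3 (y axis) in 4 classes of peaks (x axis), for all H3K27me3 peaks and for those off and on H3K9me3. Lines on bars are 95% Wilson intervals, and open points are the mean and range of 100 circular shifts; the bar for H3K4me3 domains reaches 19.2% over a shifted 5.41%, while that away from H3K4me3 stays at 1.39% under 4.52%.

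From the side of H3K27me3 the same classes parted further. H3K27me3 peaks at H3K4me3 numbered 36599, or 27.8% of the list, and 22.0% of them (21.6 to 22.4%) held H3K27ac, against 8.81% after shifts. Of those off H3K9me3, 27.8% held H3K27ac, against 8.22%. Of those on H3K9me3, 16.4% did, against 9.39%. The 95033 H3K27me3 peaks away from H3K4me3 held H3K27ac in 1.38%, against 6.09%. On H3K9me3 this share was 1.17% against 6.27%, and off H3K9me3 it was 2.74% against 4.89%. Shifts here moved H3K27ac, of which 51.1% lay at H3K4me3, so the same limit holds.

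All 20 chromosomes had these directions. The share at H3K4me3 was above the shifted mean on 20 of 20 chromosomes, with 8.75% ± 2.73 (SD over chromosomes, n = 20), from 6.75% on chromosome 2 to 19.0% on chromosome 19. The share away from H3K4me3 was below it on 20 of 20, with 1.41% ± 0.301, from 0.931% on chromosome 15 to 2.10% on chromosome 17. Chromosomes are not replicates of the experiment and serve here to show how even the pattern was.

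Chromosome 19, the richest in H3K27me3 with 9.24% of its length covered, had the highest share at H3K4me3 and at the same time the lowest ratio away from it. Its shifted levels were 13.1% and 12.1%, so the ratios were 1.45 at and 0.135 away from H3K4me3. The ratio at H3K4me3 was lowest on chromosome 10, at 1.04 (7.68% against 7.39%), and highest on chromosome 4, at 2.22 (9.37% against 4.23%). Chromosome 17 had the highest ratio away from H3K4me3, 0.618 (2.10% against 3.39%).

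**Figure D2:**
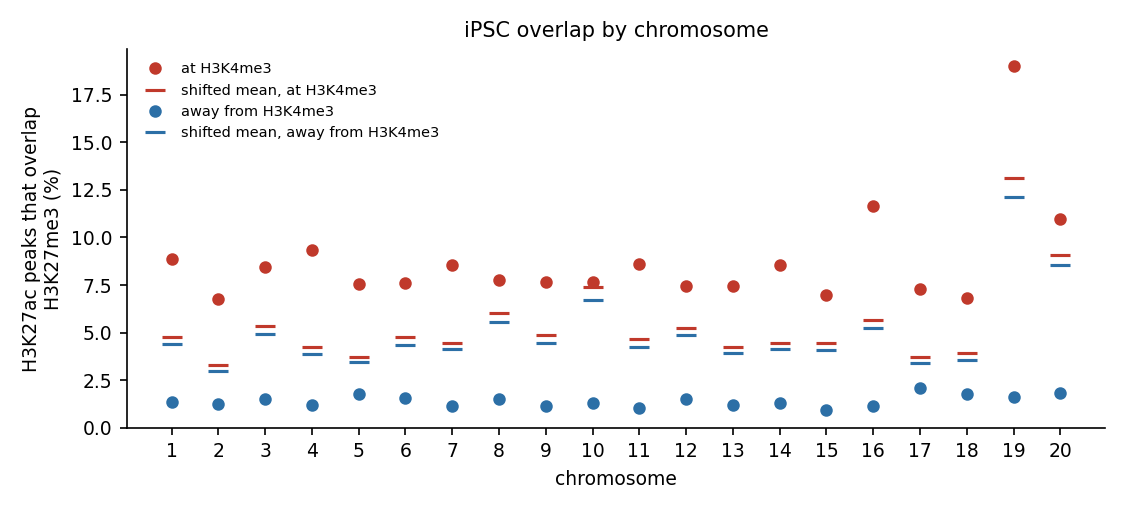
Points give the percent of iPSC H3K27ac peaks that overlap H3K27me3 (y axis) on each chromosome (x axis), in red at and in blue away from H3K4me3, and dashes give the mean of 100 shifts. Every red point lies above its dash, barely so on chromosome 10, and every blue point lies below its dash.

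An H3K4me3 site with acetylation was nonetheless less often methylated than an H3K4me3 site without it. Of 100964 H3K4me3 peaks with H3K27ac, 9.68% (9.5 to 9.86%) overlapped H3K27me3, and of 207098 without H3K27ac, 18.1% (17.95 to 18.28%) did. The order held in each of 5 equal groups by width, from 2.63% with and 13.6% without H3K27ac in the narrowest group to 23.1% and 38.9% in the widest. It also held in each of 5 groups by −log10 q, from 2.75% and 15.4% in the weakest to 22.8% and 37.3% in the strongest. For H3K27me3 off H3K9me3 the shares were 6.28% and 7.58% over all H3K4me3 peaks. Within the 5 width groups they lay further apart in ratio, at 0.582% with and 3.04% without H3K27ac in the narrowest, 2.06% and 6.51% in the next to widest and 17.5% and 26.1% in the widest.

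Counted by base pairs, H3K27me3 covered 7.08% of the 28.9 Mb with both H3K27ac and H3K4me3 and 17.7% of the 111.7 Mb with H3K4me3 alone. It covered 1.18% of the 25.4 Mb with H3K27ac but no H3K4me3, and 2.80% of the sequence with neither. The order of these 4 kinds of sequence was therefore H3K4me3 alone, both, neither and H3K27ac alone. H3K27me3 off H3K9me3 had the same order, with 9.03%, 4.55%, 0.393% and 0.324%, although its last 2 values lay close together.

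Whole H3K4me3 domains were sorted by the marks they bore. Of 20203 domains, 5914 (29.3%) overlapped both H3K27ac and H3K27me3, 7532 (37.3%) H3K27ac alone, 4827 (23.9%) H3K27me3 alone and 1930 (9.55%) neither. H3K27me3 was found on 43.98% (43.2 to 44.8%) of the 13446 domains with H3K27ac and on 71.4% (70.4 to 72.5%) of the 6757 without. In the narrowest of 5 width groups the shares were 30.1% and 49.0%, and in the widest 66.5% and 94.6%. Domains with H3K27ac alone had a median width of 2732 bp, against 3330 bp for those with both and 3371 bp for those with H3K27me3 alone. H3K9me3 peaks lay on 19.0% of domains with and 25.5% of domains without H3K27ac.

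**Figure D3:**
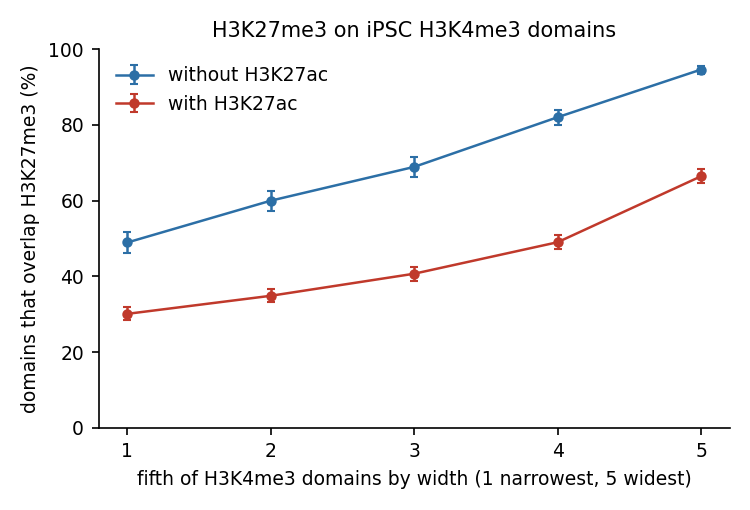
The percent of iPSC H3K4me3 domains that overlap H3K27me3 (y axis) is drawn for 5 equal groups by width (x axis), in red for domains with H3K27ac and in blue for those without; bars are 95% Wilson intervals. Both lines rise with width, and the red line stays below the blue one, at 30.1% against 49.0% in the narrowest and 66.5% against 94.6% in the widest group.

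Inside the 5914 domains with both marks, acetylated and methylated bases were shared more than a rearrangement within the same domain gave. H3K27me3 covered 28.4% of the H3K27ac base pairs there. When H3K27me3 was rotated inside each domain by 100 offsets, which keeps the amounts of both marks in each domain, it covered 17.9% (17.4 to 18.5%). When it was reflected about the middle of each domain, it covered 18.1%. In 1648 of these domains, 27.9%, the marks shared no base pair at all, a count for which no rotated level was computed. In 2210 of the 5914 domains the marks shared fewer base pairs than the mean of that domain's rotations, so the excess holds for the sum and not for each domain. The ratio to the rotated level was 1.69 for H3K27me3 off and 1.38 for H3K27me3 on H3K9me3.

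Around the summits of the peaks, the marks showed a local rise on a wider fall. At the summit of H3K27ac peaks at H3K4me3, 5.83% of positions lay in H3K27me3. The value was 2.94% at 0.5 kb, 2.37% at 2 kb and 3.13% at 100 kb, so that the flanks lay below the 3.47% of all sequence. At summits away from H3K4me3 it was 1.11%, falling to 0.501% at 0.5 kb and then rising to 1.66% at 5 kb and 2.80% at 100 kb. Around summits of H3K4me3 peaks without H3K27ac it was 15.0% at the summit, 9.33% at 1 kb and 4.06% at 100 kb, above both acetylated classes at every distance measured.

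The same profile differed between H3K27me3 off and on H3K9me3. Off H3K9me3, positions around acetylated H3K4me3 sites were at 3.32% at the summit, 1.21% at 1 kb and 0.854% at 2 kb, beside 0.811% of all sequence. On H3K9me3 they were at 2.51% at the summit and 1.22% at 0.5 kb, and stayed below the 2.66% of all sequence out to 100 kb. In H3K4me3 domains the summit values were 12.7% for H3K27ac peaks and 46.4% for the 22755 H3K4me3 peaks without H3K27ac.

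**Figure D4:**
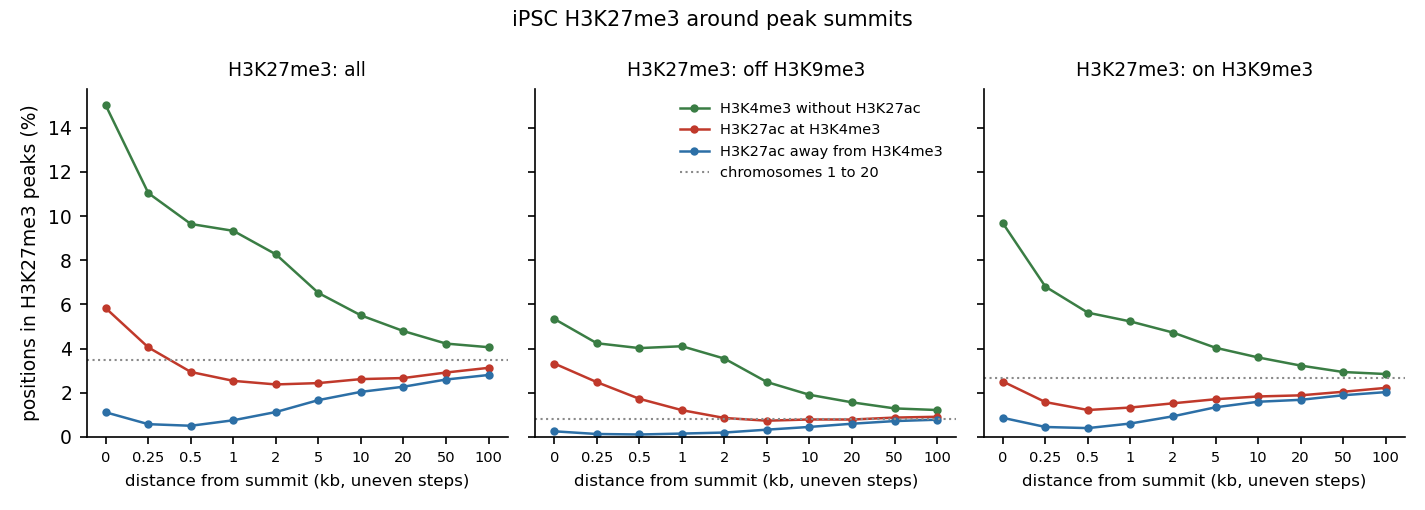
The percent of positions in iPSC H3K27me3 peaks (y axis) is drawn at 10 distances from peak summits (x axis, kb, uneven steps), for all H3K27me3 and for that off and on H3K9me3; the dotted line is the percent of chromosomes 1 to 20 covered. The green line of H3K4me3 without H3K27ac starts at 15.0%, the red line of H3K27ac at H3K4me3 at 5.83% and the blue line of H3K27ac away from H3K4me3 at 1.11%, and the blue line is lowest at 0.5 kb.

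Where peaks of both marks met, they mostly met in part. Of the 10648 overlapping H3K27ac peaks, 63.5% were staggered against the H3K27me3 peak, 20.2% lay wholly inside one and 16.3% held a whole H3K27me3 peak. The summit was inside H3K27me3 in 70.7%. The median length shared was 167 bp, in a list whose median H3K27ac peak was 206 bp wide. The length shared after shifts was not computed. Away from H3K4me3, 27.6% lay wholly inside and the median length shared was 145 bp.

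At H3K4me3, the strongest acetylation peaks met H3K27me3 most often. In 5 equal groups by −log10 q, the share of H3K27ac peaks at H3K4me3 that overlapped H3K27me3 was 4.66, 5.01, 5.63, 6.0 and 15.7% from weakest to strongest. Away from H3K4me3 it was 1.54, 1.34, 1.28, 1.29 and 1.52%, with no such rise. At H3K4me3, H3K27ac peaks in H3K27me3 had a median fold of 3.84 and a median width of 336 bp, against 3.07 and 232 bp for those apart, so strength and width moved together and their parts were not tested. Away from H3K4me3 the medians were 2.66 in H3K27me3 and 2.72 apart.

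H3K27me3 peaks went the other way. At H3K4me3 the share that held H3K27ac fell from 28.2% in the weakest of 5 groups by −log10 q to 17.8% in the strongest. Away from H3K4me3 it fell from 2.08% to 0.844%. H3K27me3 peaks at H3K4me3 with H3K27ac were narrower, with a median of 412 bp against 632.5 bp for those apart, and had a lower median −log10 q, 2.20 against 2.51.

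For position, H3K27me3 peaks were joined within 3 kb to 17618 domains of at least 2 kb. They had a median width of 3766 bp and spanned 111.0 Mb, of which 57.5 Mb were peaks and 53.4 Mb gaps between them, and 84.2% touched H3K9me3. H3K27ac summits were rarer in these domains than after shifts. At H3K4me3, 3178 summits lay in a domain against 4737 after shifts (0.671 times), and away from H3K4me3, 619 against 4418 (0.140 times). The peaks and gaps of the domains gave ratios of 0.770 and 0.564 at H3K4me3, and of 0.158 and 0.121 away from it. The domains hold only a minor part of the overlap of peaks described above. Of 6364 H3K27ac summits at H3K4me3 inside any H3K27me3 peak, 1892 lay in peaks of these domains. Away from H3K4me3 it was 361 of 1159. H3K27me3 peaks that joined to less than 2 kb are left out of all measures by domain.

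Domains that touched no H3K9me3, 2790 in number, differed. They held 829 summits at H3K4me3 against 590.8 after shifts (1.40 times), more densely in their gaps (72.6 per Mb) than in their peaks (52.7 per Mb). They held 26 summits away from H3K4me3 against 551.8 (0.0471 times). In the 14828 domains on H3K9me3 the ratios were 0.567 and 0.153, with 18.8 per Mb in gaps and 29.5 per Mb in peaks at H3K4me3.

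Acetylation inside the domains was densest at their edge. In the outermost 250 bp inside a domain there were 76.3 summits at H3K4me3 per Mb, against 42.2 (range 37.5 to 48.8) after shifts. The density was 45.5 per Mb at 250 to 500 bp, 33.9 at 1 to 2 kb, 21.3 at 2 to 5 kb, 9.87 at 5 to 10 kb and 2.78 at 20 to 50 kb from the edge, with shifted levels between 41.8 and 43.2. Only wide domains reach the deeper zones. Domains of at least 10 kb held 0.253 times the shifted number of these summits, against 0.671 times in all domains. The fall therefore joins depth with domain width, which this measure does not separate. Just outside, at 0 to 250 bp, it was 31.8 per Mb, below the shifted 42.0 (range 37.1 to 45.8). A domain begins and ends with a peak by construction, so the outermost bases are always peak sequence, and further in peaks alternate with gaps.

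Summits away from H3K4me3 were scarce on both sides of the edge. Their density fell from 46.1 per Mb over 50 kb outside to 24.7 at 2 to 5 kb, 10.8 at 0.5 to 1 kb and 6.02 in the last 250 bp outside, against about 39.6 to 40.4 after shifts. It was 14.6 in the first 250 bp inside and 1.76 at 5 to 10 kb inside, where domain width again differs with depth. Around domains off H3K9me3 the density at H3K4me3 rose towards the edge instead, but only in the last 1 kb. It was 48.9 per Mb at 5 to 10 kb outside, 46.0 at 1 to 2 kb, 54.8 at 0.5 to 1 kb and 66.7 (93 summits) at 0 to 250 bp. At 0 to 250 bp inside it was 124.7, against a shifted 42.9.

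By relative place, with the depth from edge to middle split into 5 equal steps, the outermost step held 30.5% (28.9 to 32.1%) of the 3178 summits at H3K4me3, where an even spread gives 20%. The innermost held 17.5%. In the 1959 domains of at least 10 kb the outermost step held 26.6% (23.0 to 30.6%) and the innermost 16.1% of 515 summits. Of the 619 summits away from H3K4me3, the outermost step held 31.7% and the innermost 19.2%. In domains of at least 10 kb, with 148 such summits, these were 29.7% and 23.65% (17.5 to 31.1%).

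**Figure D5:**
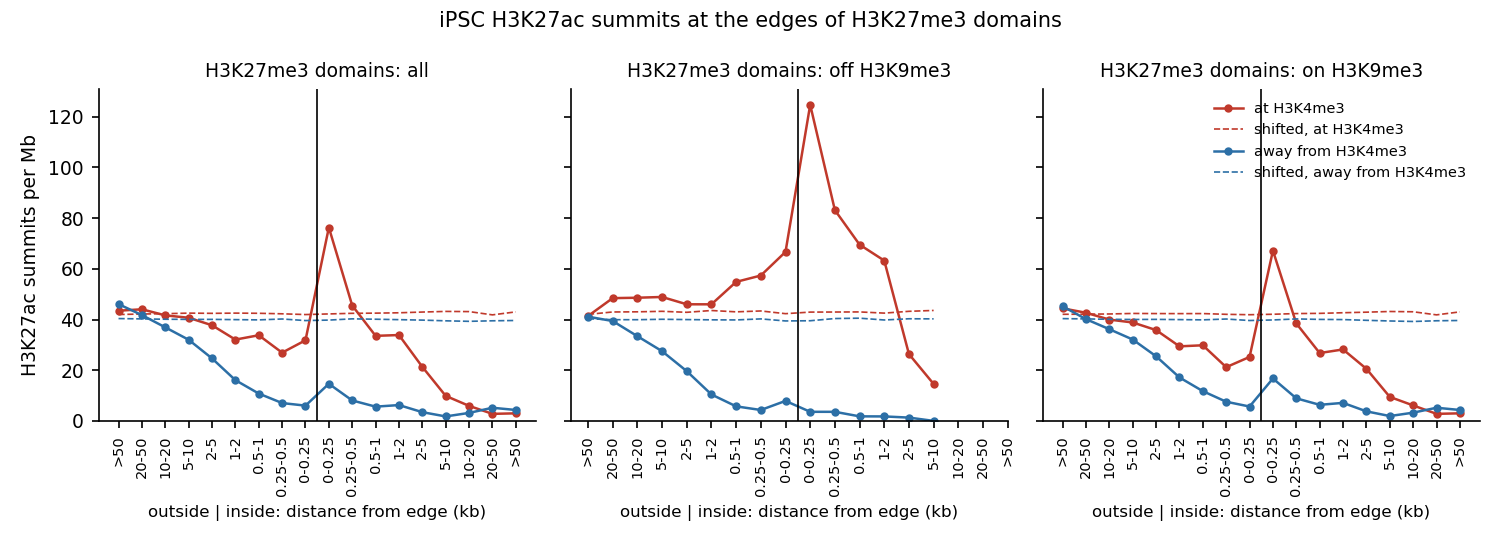
H3K27ac summits per Mb (y axis) are drawn by distance from the edge of iPSC H3K27me3 domains (x axis, kb, outside to the left and inside to the right of the vertical line), for all domains and those off and on H3K9me3; dashed lines are the mean of 100 shifts, and zones under 0.5 Mb are not drawn. Red points, at H3K4me3, peak at 76.3 per Mb in the first 0.25 kb inside and fall to 2.78 at 20 to 50 kb, a depth that only wide domains reach. Blue points, away from H3K4me3, sink to 6.02 just outside the edge.

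The wider the domain, the further its share with acetylation lay below the shifted level, except in the widest class. Of domains of 2 to 5 kb, 12.9% held a summit against 20.01% after shifts (0.643 times), of those of 5 to 10 kb 14.8% against 35.2% (0.421 times), and of those of 20 to 50 kb 14.3% against 74.7% (0.192 times). Among the 151 domains of at least 50 kb, 38.4% held one against 91.6% (0.419 times). All 151 touched H3K9me3, but a touch of 1 bp suffices, which a wide domain meets more easily. How many would touch it after shifts was not computed. The domain of 213.6 kb on chromosome 11 described below touched it with 10.6% of its length in H3K9me3. In domains of at least 10 kb off H3K9me3, 36 of 190 held a summit, 18.9% against 57.0%, although each of the 190 domains held H3K4me3 peaks, which covered 61.6% of their length.

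Peaks that did not overlap were still placed differently by class. The 100047 H3K27ac peaks at H3K4me3 that met no H3K27me3 lay a median of 10730 bp from the nearest one, against 10388 bp (10051 to 10601) after shifts. The 102962 away from H3K4me3 lay 13992 bp from it, against 10436 bp (10254 to 10586). Within 1 kb lay 7.91% of the first, against 8.33%, but only 2.40% of the second, against 8.35%. Within 10 kb the shares were 47.8% against 48.8% and 38.2% against 48.7%.

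Distances to H3K27me3 off H3K9me3 had another order. H3K27ac at H3K4me3 was nearer to it than after shifts, at a median of 39265 bp against 49416 bp, and 4.68% lay within 1 kb against 2.07%. H3K27ac away from H3K4me3 was further, at 53105 bp against 50346 bp, with 0.693% within 1 kb against 2.03%. After shifts of only 20 to 200 kb the first median was 40601 bp, closer to the observed one.

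At the scale of 1 Mb the marks were nearly unrelated. Over 2584 bins, which share the pooled libraries and their local base composition, coverage by H3K27ac and by H3K27me3 had a Spearman rho of 0.06 and a Pearson r of −0.13. For H3K27me3 off H3K9me3 these were 0.28 and 0.19, and for that on H3K9me3 −0.08 and −0.19. In the 259 bins richest in H3K27ac, H3K27me3 off H3K9me3 covered 1.22% ± 1.07 (SD over bins), against 0.759% ± 1.03 in the rest. For H3K27me3 on H3K9me3 it was the reverse, with 1.91% ± 1.35 against 2.71% ± 4.23. All H3K27me3 covered 3.13% ± 1.83 against 3.47% ± 4.455. These means are a description, since neighbouring bins are not independent.

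Single regions show the extremes. The 3 widest H3K27me3 domains with no H3K27ac peak were taken among those with at least 50% of their span in H3K27me3 peaks. Coordinates are as in the lists, for which no source used here names a build. The domain at chr11:49988273-50201898 (213.6 kb) had 91.8% of its length in H3K27me3, 58.5% in H3K4me3 and 10.6% in H3K9me3. In ESC 98.8% of it lay in H3K27me3, and no ESC H3K27ac peak was found there either. The others were of another kind: chr20:5141351-5414109 (272.8 kb) had 57.0% in H3K27me3, 82.5% in H3K9me3 and 0.683% in H3K4me3, and chr8:134527401-134711973 (184.6 kb) had 56.5%, 90.7% and 0.854%. In ESC, H3K27me3 covered 0.931% and 0.964% of these.

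The H3K27me3 domains with most acetylation inside their peaks held 2 near neighbours. At chr8:101359089-101367319, 5.42 kb of 8.23 kb bore both marks, with 84.7% of the domain in H3K9me3 and 43.3% in H3K4me3, and ESC had no H3K27ac peak there while 70.7% lay in H3K27me3. At chr8:101342897-101349537, 4.54 kb of 6.64 kb bore both, with 84.3% in H3K9me3, and ESC H3K27ac covered 2.70%. The region at chr4:32317692-32321942 had no H3K9me3: a single H3K27me3 peak of 4.25 kb lay wholly in H3K4me3 and shared 4.0 kb with H3K27ac.

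Among H3K4me3 domains, chr4:32316033-32327310 holds that peak and shared most base pairs, 4.0 kb of 11.3 kb. It was followed by chr1:26825397-26830454, with 3.56 kb of 5.06 kb, and chr5:106338067-106368006, with 3.52 kb of 29.9 kb. In the last, H3K27me3 covered 75.5% and H3K27ac 12.6%, so nearly all of its 3.77 kb of acetylation lay in H3K27me3. In 1648 domains both marks were present and shared nothing. The 3 of these with most base pairs of the less abundant mark were chr7:113873487-113881870, chr13:43964870-43979379 and chr15:96529237-96536824. The domain on chromosome 7 had 3.35 kb of H3K27me3 in 3 peaks and 2.00 kb of H3K27ac in 7 peaks within 8.38 kb. No gene is named for these regions, because the gene table at hand did not match the coordinates.

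The ESC lists, which hold 376101 H3K27ac peaks (102.4 Mb) and 51150 H3K27me3 peaks (53.9 Mb), are given beside the iPSC lists with no test of the difference. In ESC, 5.09% of H3K27ac peaks at H3K4me3 lay in H3K27me3 against 2.83% after shifts, and 0.506% of those away from H3K4me3 against 2.57%. The share at H3K4me3 was higher in iPSC on 20 of 20 chromosomes, but its ratio to the whole-chromosome shifted level only on 8 of 20. Over all chromosomes that ratio was 1.69 in iPSC and 1.80 in ESC, while with shifts of 20 to 200 kb it was 1.90 in iPSC and 1.54 in ESC, so the order of the cell types turned with the kind of shift. The ratio away from H3K4me3 was higher in iPSC on 18 of 20. Within H3K4me3 domains with both marks, ESC H3K27me3 covered 21.9% of H3K27ac base pairs against 21.4% after rotation and 22.5% after reflection, where iPSC had 28.4% against 17.9% and 18.1%. H3K27me3 lay on 41.2% of ESC domains with and 85.0% of those without H3K27ac.

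The iPSC regions with both marks were mostly acetylated in ESC too. Of H3K27ac peaks at H3K4me3 that lay in iPSC H3K27me3, 89.3% overlapped H3K27ac and 29.4% H3K27me3 of ESC. Of those at H3K4me3 but apart from H3K27me3, 83.8% overlapped ESC H3K27ac and 2.76% ESC H3K27me3. From the side of H3K27me3, peaks at H3K4me3 with H3K27ac overlapped ESC H3K27ac in 88.7% and ESC H3K27me3 in 32.0%, and those without H3K27ac in 11.0% and 48.4%. Away from H3K4me3, H3K27ac peaks in H3K27me3 overlapped ESC H3K27me3 in 4.62% and ESC H3K27ac in 57.4%. Those apart from H3K27me3 did so in 0.426% and 66.0%, so ESC H3K27ac was here less frequent on peaks in H3K27me3, the reverse of the order at H3K4me3.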

How the data were processed

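The 8 deposited peak lists, 1 per cell type and mark, were used. The submitters' processing notes name MACS2, SAMtools 1.10, Picard and deepTools. An aligner, a build, thresholds and the way libraries and inputs became 1 list were not given in the sources used here. Each deposited peak carries a fold enrichment (a ratio) and a −log10 q from the authors' peak caller, and both served here for description, ranking and filters inside 1 list. The deposited −log10 p and score columns were not used. With no counts the depth is unknown, and Wilson intervals cover counting error only; neighbouring peaks are not independent.

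Peaks within a list did not overlap each other. Overlap meant at least 1 bp. H3K27me3 was shifted in a circle along each chromosome by 100 offsets of 5 to 95% of its length, taken as the furthest peak end in the 8 lists. Alternatives were shifts of 20 to 200 kb, firm peaks (−log10 q of at least 5 for narrow and 2 for broad lists), stricter ones (10 and 3), other joining distances and H3K27me3 off or on H3K9me3. The code was tested on simulated data. Named regions are the 3 highest by each of 4 rules. For H3K27me3 domains with no H3K27ac peak it was width, among those with at least 50% of their span in H3K27me3 peaks. For H3K27me3 domains and for H3K4me3 domains with both marks it was shared base pairs. For H3K4me3 domains with both marks and none shared it was base pairs of the less abundant mark. Regions, classes and rules were chosen with earlier results of these data known, and the profiles around summits, the reflection and the bins of 1 Mb were added after the data were seen. A gene table of Panubis1.0 was at hand. On 12 of 20 chromosomes it ended more than 5 Mb before or after the last peak, so no gene was joined and no sequence is shown. Python 3.11.15 with NumPy 2.4.6, pandas 2.3.3 and SciPy 1.17.1 was used.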

Additional observations from a re-analysis of the deposited data

Results flagged for a closer look

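Sequences outside chromosomes 1 to 20 also held overlaps. On the X chromosome, 81 of 3135 H3K27ac peaks, 2.58% (2.08 to 3.20%), lay in H3K27me3, against 1.21% (0.702 to 1.91%) after shifts. At H3K4me3 this was 3.62% against 1.25%, and away from it 14 of 1283 peaks, 1.09% against 1.14%, close to each other; the difference from the other chromosomes was not tested. On unplaced scaffolds, 28.1% (26.9 to 29.4%) of 5011 H3K27ac peaks lay in H3K27me3, against 24.3% after shifts within the same scaffolds, and at H3K4me3 39.7% against 33.2%. Away from H3K4me3 it was 12.8% against 12.5% there. These sequences were 21522 scaffolds with 24828 H3K27me3 peaks, so a shift within 1 scaffold may hardly part the marks. The closeness of shifted and observed shares on scaffolds is therefore not read as a result.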

How the results depend on the processing

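No library could be left out, since each list joins all libraries of a cell type and mark, and no paired analysis was possible because no result comes from a test. Values here are ratios to the shifted level, with the cause of each change not tested. The overall overlap of 1.05 was 0.872 when at least 50% of the H3K27ac peak had to lie in H3K27me3, 1.01 for summits, 1.22 and 2.77 for firm and stricter peaks, 1.23 with shifts of 20 to 200 kb, 2.57 off and 0.575 on H3K9me3, so its side of 1 depends on the choice. At H3K4me3 the 1.69 was 1.99 and 3.98 for firm and stricter peaks, 1.90 with shifts of 20 to 200 kb, 4.47 off and 0.817 on H3K9me3, 1.48 with H3K4me3 within 1 kb and 1.85 with firm H3K4me3, so it turned below 1 with H3K27me3 on H3K9me3 under whole-chromosome shifts. With H3K27me3 on H3K9me3 and shifts of 20 to 200 kb it was 1.004 (0.972 to 1.04), and 0.386 away from H3K4me3. Away from H3K4me3 the 0.307 was 0.210, 0.344, 0.376, 0.335, 0.298, 0.290 and 0.339 under the same settings. The stricter peaks and the values on H3K9me3 of both classes were added after the data were seen. The settings of at least 50% of the peak and of summits were not run for the classes at and away from H3K4me3.

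Summits in domains at and away from H3K4me3, 0.671 and 0.140, were 0.352 and 0.0420 with overlapping peaks alone joined. Since peaks of a list did not overlap, that setting holds single peaks of at least 2 kb. The 2 ratios were 0.889 and 0.340 with joining within 10 kb and 0.525 and 0.0886 for firm H3K27me3. They were 0.415 and 0.0943 for domains of at least 5 kb and 0.253 and 0.0794 for at least 10 kb. For H3K27me3 off H3K9me3, joined anew, they were 1.205 and 0.0605, so the first turned above 1. Median distances at and away from H3K4me3, 1.03 and 1.34 times the shifted ones, were 1.03 and 1.27 with shifts of 20 to 200 kb, 1.09 and 1.32 for firm peaks and 0.795 and 1.05 off H3K9me3, where the first turned below 1. Shared base pairs in H3K4me3 domains, 1.59 times the rotated level, were 1.49 in domains of at least 5 kb, 1.70 for firm, 1.89 for stricter peaks, 1.69 off and 1.38 on H3K9me3; against the reflected level they were 1.57, and 1.53, 1.66, 1.97, 1.66 and 1.35 in these settings. Unknown depth limits all of these values, since a peak missed in a shallow library looks like sequence without the mark.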
